A study of Homo sapiens with 4 samples.

Results

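The enzymes that write, copy, read and remove cytosine methylation were followed here at the mRNA level after VHL restoration in 786-O, a clear cell renal carcinoma cell line without functional VHL. The 10 genes were taken by symbol and role, a choice made with earlier results of these data known: the methyltransferases DNMT1, DNMT3A and DNMT3B, the maintenance factors UHRF1 and HELLS, the dioxygenases TET1, TET2 and TET3, the glycosylase TDG and the reader MBD2. All 10 are among the 12912 genes of the deposited count table, each on 1 row, and all 10 were among the 12335 genes with enough counts to be tested. RNA was extracted in duplicate from 786-O-Ctrl, labeled VHL-null, and from 786-O-VHL, labeled VHL restoration, and sequenced as 4 Illumina libraries. Both sublines carry the triple reporter (GFP, luciferase and thymidine kinase, from a retroviral vector), and 786-O-VHL was further transduced with HA-VHL in a retroviral vector. The vector status of 786-O-Ctrl beyond the reporter is not given in the sources used here. Each group is 1 subline, and no source says that its libraries came from separate cultures, so that p-values measure the spread between these libraries, which may be technical.

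In mammalian DNA, methyl groups sit mostly on the cytosines of CpG pairs. DNMT1 copies the pattern onto the new strand after replication and is brought there by UHRF1, which binds hemimethylated CpG, whereas DNMT3A and DNMT3B methylate sites that carried no methyl group before. The TET enzymes oxidize methylated cytosine and use oxygen, iron and alpha-ketoglutarate to do so, as the HIF prolyl hydroxylases do. TDG cuts out the most oxidized forms so that base excision repair can restore cytosine, and MBD2 binds methylated CpG and brings the NuRD histone deacetylase complex to it.

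Library totals were 22141263 and 15714166 counts for 786-O-Ctrl, called the deeper and the shallower library below, and 2807779 and 16114120 counts for replicates 1 and 2 of 786-O-VHL. Levels are given as CPM, the usual scaling of counts to library size, here the library total times its TMM factor, and 3 counts, the limit that a count of 0 allows, correspond to between 0.142 and 1.02 CPM. Differences were tested by quasi-likelihood in edgeR, with p-values adjusted over all 12335 genes by Benjamini-Hochberg (FDR), and a gene was called at an FDR under 0.05. With 2 libraries against 2, a two-sided exact permutation test of a single value cannot go below 0.333, so that the FDR values rest on a spread shared between genes. VHL itself was at 42.9 and 43.9 CPM in 786-O-Ctrl against 178 and 163 CPM in 786-O-VHL. The log2 fold change was 1.96 ± 0.0706 (SE, FDR = 2.86e-19 by edgeR). All 10 markers of renal epithelium and of 786-O had counts, PAX8, PAX2, VIM and KRT8 among them, and summed to between 3846 and 3851 CPM in 786-O-Ctrl and to between 3047 and 3117 CPM in 786-O-VHL. Of the immune, fibroblast and endothelial markers, 1 of 7, 2 of 6 and 2 of 6 have a row in the table. Their sums were between 0.0665 and 1.02 CPM, between 7.11 and 9.5 CPM and between 0.339 and 0.76 CPM over the 4 libraries. The sources used here do not say why a gene has no row, so a missing row does not show that it is not expressed.

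The 10 genes split by direction in 786-O-VHL. The effect of VHL was not tested apart from other differences of the sublines, such as vector status. The maintenance genes UHRF1, HELLS and DNMT1 fell, by 4.01-fold, 3.84-fold and 2.19-fold, while the de novo methyltransferases DNMT3B and DNMT3A rose by 2.19-fold and 1.93-fold. TET3 and TET2 rose by 1.38-fold and 1.28-fold, MBD2 fell by 1.20-fold, and neither TET1 nor TDG was called. In all, 8 of the 10 genes were called, 4 higher and 4 lower in 786-O-VHL. Calls were frequent in this comparison: 64.5% of all genes tested passed the same threshold, 32.6% as higher and 31.9% as lower, so the number of calls does not set these genes apart. The CPM ranges of both groups did not overlap for 8 of the 10 genes and for 80% of all genes. A called fall of at least 2-fold was less common among all genes, at 7.52%, and was measured for 3 of the 10. Because the 10 genes were chosen with earlier results of these data known, no enrichment can be read from this. The median log2 fold change was -0.15 over the 10 genes and 0.017 over all genes.

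**Figure D1:**
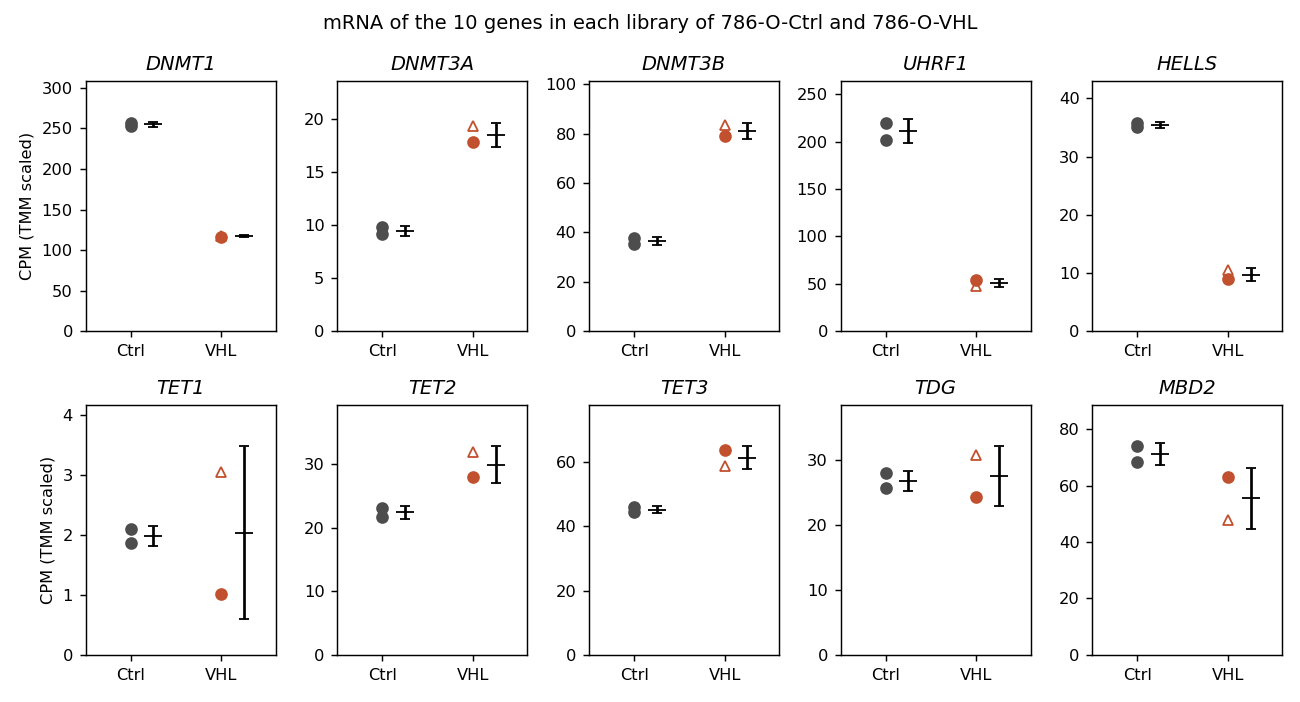
CPM (TMM scaled) of each of the 10 genes in the libraries of 786-O-Ctrl (grey) and 786-O-VHL (red; open triangle, replicate 1, the shallowest library; filled circle, replicate 2), with the mean and SD (n = 2) beside each group. UHRF1, HELLS and DNMT1 lie lower and DNMT3A and DNMT3B higher in both 786-O-VHL libraries, while the libraries of TET1 and TDG overlap.

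The largest change was that of UHRF1 (ENSG00000276043.5, chr19:4903092-4962165 of GRCh37, plus strand), the factor that recognizes hemimethylated CpG and recruits DNMT1. Its counts were 4625 (deeper) and 3033 (shallower) in 786-O-Ctrl against 142 (replicate 1) and 909 (replicate 2) in 786-O-VHL, or 220, 202, 48.2 and 54.0 CPM. Both 786-O-VHL libraries were far below both 786-O-Ctrl libraries. Group means were 211 ± 12.8 and 51.1 ± 4.11 CPM (SD, n = 2 each), and the log2 fold change was -2.00 ± 0.0763 (SE, FDR = 9.13e-19 by edgeR), which placed UHRF1 at rank 69 of all genes by p. An annotated microRNA gene lies within UHRF1 on the same strand.

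HELLS (ENSG00000119969.15, chr10:96305086-96373662, plus strand), a SNF2-type chromatin remodeler that DNA methylation of repeats depends on, moved nearly as far. It had 35.1 and 35.8 CPM in 786-O-Ctrl against 10.5 and 8.91 CPM in 786-O-VHL, the value of replicate 1 resting on 31 counts. The groups were well apart, with a log2 fold change of -1.94 ± 0.132 (SE, FDR = 2.97e-13 by edgeR). DNMT1 (ENSG00000130816.16, chr19:10244018-10341962, minus strand), the maintenance methyltransferase itself, was at 257 and 253 CPM in 786-O-Ctrl against 117 and 116 CPM in 786-O-VHL. Replicates were close to each other in both groups, and the log2 fold change was -1.13 ± 0.0659 (SE, FDR = 1.05e-14 by edgeR). The protein-coding gene S1PR2 on the same strand overlaps the annotated span of DNMT1, as a long non-coding RNA gene does that of HELLS, and reads there could have been counted on either. DNMT1 fell less than its recruiter: per kb of merged exons, the log2 ratio of UHRF1 to DNMT1 was 1.35 and 1.25 in 786-O-Ctrl against 0.295 and 0.479 in 786-O-VHL, groups that did not overlap (exact permutation p = 0.333, the smallest possible).

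Because UHRF1, HELLS and DNMT1 moved together, the 250 bases before their listed starts are shown. DNMT3B, which moved the other way, is shown by the same window of its 1 listed start. The sequences are those of RefSeq on GRCh38.p14, written from the distal end to the base before the start on the strand of the gene, and capitals mark the words of an E2F-type motif (TTTCCCGC, TTTGGCGC, TTTCGCGC or TTTGCCGC, on either strand). For UHRF1, which has 3 listed starts, the window of the most upstream start is given. The windows are chr19:4909251-4909500 (plus strand) for UHRF1, chr10:94545538-94545787 (plus strand) for HELLS, chr19:10194954-10195203 (minus strand) for DNMT1 and chr20:32779602-32779851 (plus strand) for DNMT3B.
UHRF1: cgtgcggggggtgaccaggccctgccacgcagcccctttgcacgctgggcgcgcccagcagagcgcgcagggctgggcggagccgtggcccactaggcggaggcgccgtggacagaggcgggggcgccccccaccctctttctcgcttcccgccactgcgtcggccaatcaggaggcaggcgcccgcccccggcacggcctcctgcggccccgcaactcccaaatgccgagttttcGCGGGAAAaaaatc
HELLS: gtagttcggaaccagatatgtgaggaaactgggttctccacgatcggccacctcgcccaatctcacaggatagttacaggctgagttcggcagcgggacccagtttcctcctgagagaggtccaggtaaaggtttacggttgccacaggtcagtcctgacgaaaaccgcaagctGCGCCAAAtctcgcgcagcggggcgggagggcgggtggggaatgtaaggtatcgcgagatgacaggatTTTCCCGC
DNMT1: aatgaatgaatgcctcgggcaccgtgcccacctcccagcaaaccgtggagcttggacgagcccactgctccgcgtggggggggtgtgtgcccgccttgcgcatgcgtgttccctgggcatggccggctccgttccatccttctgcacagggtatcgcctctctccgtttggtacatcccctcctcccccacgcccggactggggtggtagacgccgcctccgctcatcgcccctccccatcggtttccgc
DNMT3B: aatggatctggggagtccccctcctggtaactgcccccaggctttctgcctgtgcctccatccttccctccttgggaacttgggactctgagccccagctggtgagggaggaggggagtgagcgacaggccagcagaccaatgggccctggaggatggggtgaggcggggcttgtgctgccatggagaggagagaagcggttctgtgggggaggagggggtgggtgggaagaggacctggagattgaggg

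All 10 genes matched a RefSeq entry, with 21 start windows between them. The E2F-type words were found in 3 of these windows, at 2 of the 3 starts of UHRF1 and at the start of HELLS, which holds the words TTTGGCGC and TTTCCCGC, 68 and 0 bases before the start. In the UHRF1 window shown, TTTCCCGC lies on the opposite strand, 6 bases before the start. The 4-word motif was present in 2.79% of all 35114 windows of this length and in 3.98% of the 14414 windows of genes tested. A HIF core word (ACGTG or GCGTG, either strand) was present in 11 of the 21 windows, in 43.2% of all windows and in 54.5% of the windows of genes tested. The windows also differed in CpG content, the very feature these enzymes act on. The DNMT3B window holds 3 CpG, and those shown for HELLS, DNMT1 and UHRF1 hold 18, 21 and 28. The median of all windows was 11 (20 for genes tested). The 1 start listed for DNMT3B need not lie at the beginning of the gene or be the start used in these cells. Its low CpG content and lack of E2F-type words may therefore not hold for the main promoter of DNMT3B. A word match describes the sequence and does not show binding.

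Among the de novo enzymes, DNMT3B (ENSG00000088305.18, chr20:31350191-31397165, plus strand) had 793 and 531 counts in 786-O-Ctrl against 246 and 1329 counts in 786-O-VHL, or 37.7, 35.3, 83.5 and 78.9 CPM. Every 786-O-VHL value was more than 2-fold every 786-O-Ctrl value. The log2 fold change was 1.13 ± 0.0793 (SE, FDR = 5.99e-13 by edgeR), the same size as the fall of DNMT1 with the sign turned. Counts per gene do not separate the catalytically active isoforms of DNMT3B from the inactive ones. DNMT3A (ENSG00000119772.16, chr2:25450724-25565459, minus strand), its paralog, was lowly expressed, at 9.12 and 9.77 CPM in 786-O-Ctrl against 19.3 and 17.8 CPM in 786-O-VHL. The groups did not overlap, with a log2 fold change of 0.95 ± 0.15 (SE, FDR = 3.34e-06 by edgeR).

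These opposite changes shifted the make-up of the methyltransferase mRNA. Levels of different genes were compared per kb of merged exons. DNMT1 held 73.1% and 73.8% of the summed level of DNMT1, DNMT3A and DNMT3B in 786-O-Ctrl against 36.0% and 37.1% in 786-O-VHL. DNMT3B held 24.0% and 23.0% in 786-O-Ctrl against 57.3% and 56.6% in 786-O-VHL, so that DNMT3B stood below DNMT1 in both 786-O-Ctrl libraries and above it in both 786-O-VHL libraries. This crossing rests on the division by length: in CPM, DNMT1 (117 and 116) stayed above DNMT3B (83.5 and 78.9) in 786-O-VHL, and with raw counts the DNMT1 share fell by 30.8 percentage points. DNMT3A stayed minor, at 3.04% ± 0.2 and 6.49% ± 0.197 (SD, n = 2 each). The ratio of both de novo enzymes to DNMT1 rose from 0.361 ± 0.00879 to 1.73 ± 0.0556 (SD, n = 2 each). The summed level of all 3 methyltransferases was 22.6 ± 0.388 CPM per kb in 786-O-Ctrl and 20.7 ± 0.619 CPM per kb in 786-O-VHL. None of these contrasts can reach a p under 0.333 in an exact permutation test over 2 libraries against 2. With the length of the longest transcript in place of merged exons, the DNMT1 share was 79.2% and 44.2%, the DNMT3B share 18.5% and 50.5%, and the summed level was 45.0 and 36.8 CPM per kb.

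**Figure D2:**
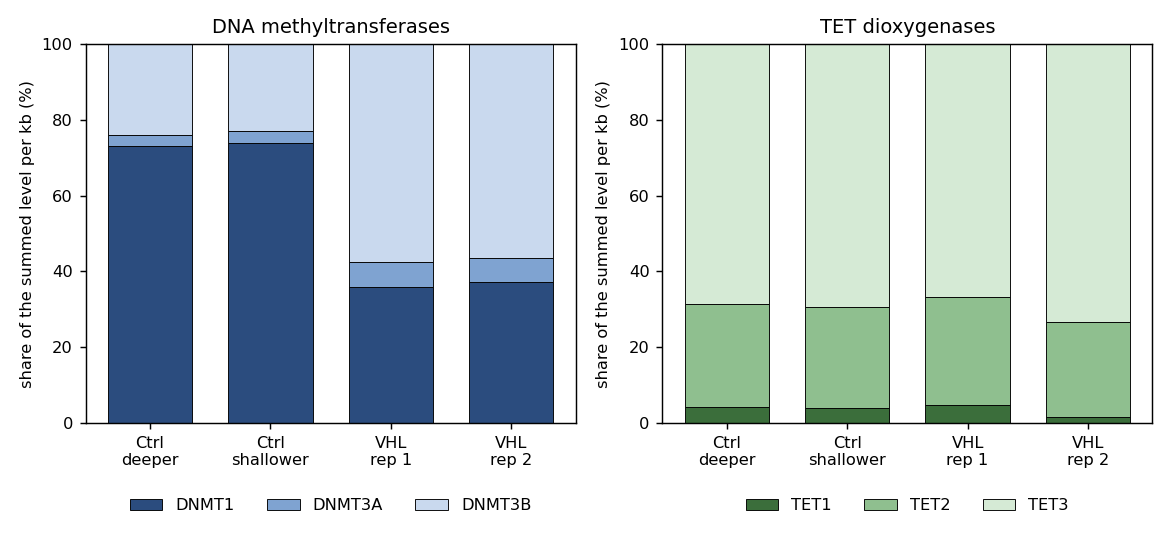
Share in percent of the summed level per kb of merged exons held by each DNA methyltransferase (left) and each TET enzyme (right), as stacked bars for the 4 libraries. DNMT1 takes 73.1% and 73.8% of the methyltransferase level in 786-O-Ctrl against 36.0% and 37.1% in 786-O-VHL, whereas TET3 takes between 66.8% and 73.3% of the TET level in every library.

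The TET enzymes moved less. TET3 (ENSG00000187605.15, chr2:74212037-74335303, plus strand), the most abundant of the 3 per kb, had 45.8 and 44.3 CPM in 786-O-Ctrl against 58.7 and 63.7 CPM in 786-O-VHL, without overlap. Its log2 fold change was 0.47 ± 0.0802 (SE, FDR = 1.03e-05 by edgeR). TET2 (ENSG00000168769.13, chr4:106067032-106200973, plus strand) had 23.1 and 21.7 CPM in 786-O-Ctrl against 31.9 and 27.9 CPM in 786-O-VHL. These groups did not overlap either, and the log2 fold change was 0.36 ± 0.114 (SE, FDR = 0.00703 by edgeR). The TET2 call was lost with DESeq2 (adjusted p = 0.076) and without the shallower 786-O-Ctrl library (edgeR FDR = 0.0893). The antisense gene TET2-AS1 overlaps TET2, and its reads cannot be told apart from those of TET2 if the counting did not use strand.

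TET1 (ENSG00000138336.9, chr10:70320094-70454244, plus strand) had the fewest counts of the 10 genes. There were 44 and 28 counts in 786-O-Ctrl against 9 and 17 counts in 786-O-VHL, or 2.09, 1.86, 3.05 and 1.01 CPM. The 786-O-VHL libraries lay on either side of both 786-O-Ctrl libraries, and the exact Poisson 95% interval of replicate 1, from 1.40 to 5.80 CPM, met that of replicate 2, from 0.588 to 1.62 CPM. These intervals cover counting error only. The fitted log2 fold change of -0.53 ± 0.429 (SE, FDR = 0.289 by edgeR) was not called, and it became 0.61 without 786-O-VHL replicate 2, so that no direction can be given at this depth. The summed TET level was 5.16 and 4.93 CPM per kb in 786-O-Ctrl against 6.79 and 6.72 CPM per kb in 786-O-VHL. TET3 held 69.0% ± 0.601 of it in 786-O-Ctrl against 70.0% ± 4.58 in 786-O-VHL (SD, n = 2 each), a difference within the spread between replicates. The log2 ratio of the summed methyltransferase level to the summed TET level was 2.15 and 2.18 in 786-O-Ctrl against 1.64 and 1.59 in 786-O-VHL, without overlap (exact permutation p = 0.333, the smallest possible). The difference of -0.544 became -0.71 with the longest transcript and -0.901 with raw counts.

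TDG (ENSG00000139372.15, chr12:104359600-104382652, plus strand), the glycosylase that follows the TET enzymes, was at 25.8 and 28.0 CPM in 786-O-Ctrl against 30.9 and 24.4 CPM in 786-O-VHL. The 786-O-VHL libraries enclosed those of 786-O-Ctrl, and the log2 fold change of -0.05 ± 0.117 (SE, FDR = 0.738 by edgeR) was not called and turned positive under 4 alternatives of the processing. A pseudogene, TDGP1, is annotated, and a long non-coding RNA gene overlaps TDG on its strand. MBD2 (ENSG00000134046.12, chr18:51677976-51751039, minus strand), the reader, was at 68.5 and 73.9 CPM in 786-O-Ctrl against 47.8 and 63.1 CPM in 786-O-VHL. The groups did not overlap, but the 786-O-VHL libraries differed from each other more than replicate 2 did from 786-O-Ctrl. The log2 fold change of -0.26 ± 0.085 (SE, FDR = 0.00901 by edgeR) lost its call with scaling by library totals alone (-0.13, edgeR FDR = 0.189), after thinning to equal depth (edgeR FDR = 0.0668) and without the shallower 786-O-Ctrl library (edgeR FDR = 0.0739). Without 786-O-VHL replicate 2 it was -0.57.

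**Figure D3:**
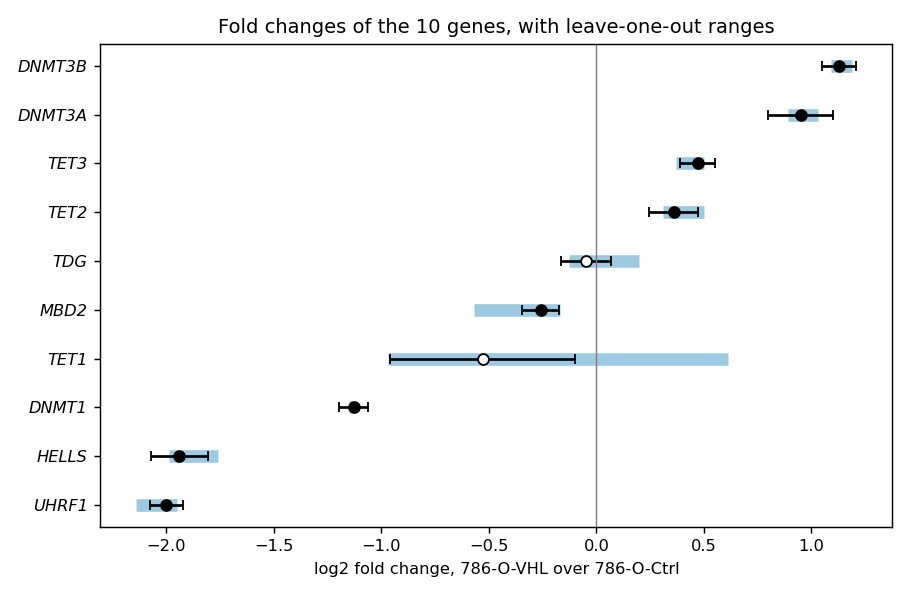
Log2 fold change (786-O-VHL over 786-O-Ctrl) of the 10 genes with its standard error as the bar. Filled points passed an edgeR FDR of 0.05, and the blue band spans the values when 1 library at a time was omitted. The bands of UHRF1, HELLS, DNMT1, DNMT3A and DNMT3B stay far from 0, while those of TET1 and TDG cross it.

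Set side by side per kb of merged exons, the 10 genes spanned a wide range of levels. In 786-O-Ctrl, UHRF1 was highest at 40.9 CPM per kb, followed by DNMT1 at 16.6, MBD2 at 12.5, TDG at 5.50 and DNMT3B at 5.30 CPM per kb, of which TDG and DNMT3B overlapped between libraries. TET3 at 3.48, HELLS at 2.49, TET2 at 1.36, DNMT3A at 0.685 and TET1 at 0.205 CPM per kb came next. In 786-O-VHL, DNMT3B led at 11.8 CPM per kb. UHRF1 at 9.93 and MBD2 at 9.76 CPM per kb followed, overlapping between libraries, and DNMT1 was at 7.58 CPM per kb. HELLS, at 0.682 CPM per kb, had dropped below TET2 and DNMT3A, which were at 1.81 and 1.35 CPM per kb. With the longest transcript as the length, DNMT1 (16.3 CPM per kb) stood above MBD2 and UHRF1 (11.9 CPM per kb) in 786-O-VHL, and HELLS (6.37 CPM per kb) above TET3 (3.74) in 786-O-Ctrl, so that these parts of the order depend on the length used.

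The gene whose profile over the 4 libraries lay closest to that of UHRF1, by the Euclidean distance of log2 CPM centred on the mean among 9234 genes with at least 10 CPM, was RAD54L (distance 0.0237), a recombination repair helicase. ASF1B, a histone chaperone of replication (distance 0.0584), and TFRC, the transferrin receptor (distance 0.0934), came next. Their log2 fold changes were -1.99, -1.94 and -2.06. For DNMT3B the closest were PELI1, NCKAP5L and GPC6, with log2 fold changes of 1.12, 1.15 and 1.11. With 4 libraries in 2 groups, such a distance reflects mainly the size of the group difference.

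**Figure D4:**
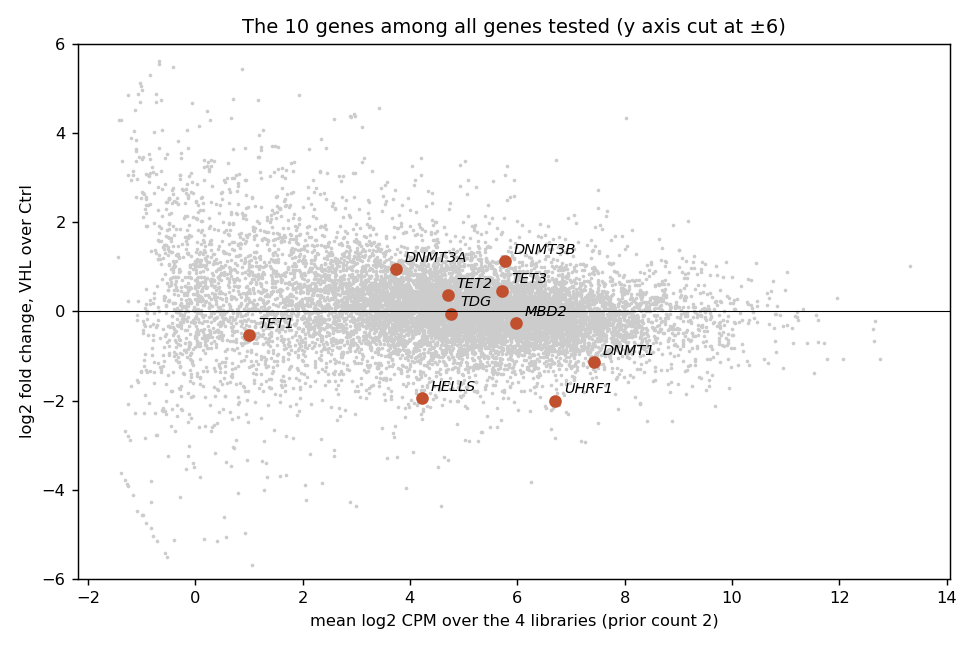
Log2 fold change against mean log2 CPM (prior count 2) for all 12335 genes tested (grey) and the 10 genes (red). UHRF1 and HELLS lie in the lower part of the cloud at their level, with other genes lower still, and TET1 at its weakly expressed end. The 25 genes beyond ±6 are not shown.

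The fall of the maintenance genes stood beside a fall of replication genes. UHRF1, HELLS and DNMT1 are most transcribed in cycling cells, around S phase. Of 28 S phase and replication genes, 28 were lower and 0 higher in 786-O-VHL, with a median log2 fold change of -1.84 and a range from -3.89 to -0.81. By the same call, 31.9% of all genes tested were lower. This list and the next were chosen with earlier results of these data known, so no enrichment can be read from them. CCNE2, GINS2 and MCM4 fell most, by log2 fold changes of -3.89, -3.28 and -2.93. The value of CCNE2 rests on 6 and 11 counts in 786-O-VHL. Of 18 tested G2 and M phase genes, 18 were lower, with a median of -0.91 and a range from -1.45 to -0.28. KIF11, MKI67 and CCNB1 lay at the lower end (-1.45, -1.26 and -1.22). Of the 20 genes listed, KIF23 has no row and NUSAP1 had too few counts to be tested. UHRF1 and HELLS were thus within the range of the first list, near its median, and DNMT1 nearer to that of the second. The part of a change in cycling cells in the fall of these genes was not tested. In bulk RNA, fewer cells in a phase and less RNA per cell cannot be told apart. The paper found that 786-O-Ctrl and 786-O-VHL did not differ significantly in forming colonies or spheres in culture.

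Cofactors of the methyltransferases went both ways. Of 12 tested genes, 5 were lower and 2 higher (4 higher with scaling by library totals alone). Among all genes tested, 31.9% were called lower and 32.6% higher. Their median log2 fold change was -0.22. The largest falls were those of PCLAF, LIG1 and PCNA, replication fork proteins that help to bring UHRF1 or DNMT1 to new DNA. Their log2 fold changes were -2.87 ± 0.234 (SE), -2.01 ± 0.105 (SE) and -1.83 ± 0.0718 (SE). PCLAF had 3 and 39 counts in 786-O-VHL, at the limit of detection in replicate 1, so the size of its fall is uncertain. CDCA7, the partner that activates HELLS, was at 72.3 and 72.2 CPM in 786-O-Ctrl against 34.9 and 27.3 CPM in 786-O-VHL. The log2 fold change was -1.32 (edgeR FDR = 5.1e-13). It falls outside the 3 named by rule and was singled out after its value was seen. UHRF2, the paralog of UHRF1, rose: it was at 45.7 and 51.9 CPM in 786-O-Ctrl against 85.5 and 93.1 CPM in 786-O-VHL. The log2 fold change was 0.91 ± 0.0775 (SE, FDR = 4.19e-11 by edgeR). The UHRF paralogs therefore moved in opposite directions, as DNMT1 and the DNMT3 enzymes did. NSD1, a histone methyltransferase whose mark attracts DNMT3A, rose by a log2 fold change of 0.57.

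Other genes of the methyl-CpG binding protein families were mixed, with 4 higher and 2 lower of 8 tested and a median of 0.22 on the log2 scale. For comparison, 32.6% of all genes tested were called higher and 31.9% lower. The genes of this list were taken by family, which does not mean that each of them binds methylated CpG. The higher genes numbered 2 with DESeq2 and 2 without the deeper 786-O-Ctrl library. MBD6, MBD4 and ZBTB33 rose by log2 fold changes of 0.66, 0.42 and 0.31, while ZBTB38 and MBD3 fell by 0.76 and 0.29 on the log2 scale. Of the 12 subunits of NuRD, the complex that MBD2 recruits, 8 were lower and 1 was higher, with a median of -0.23. HDAC1, CDK2AP1 and RBBP7 fell most (-0.78, -0.70 and -0.43), and the 1 higher subunit was MTA1 (0.17, edgeR FDR = 0.0279). MTA1 was not called with DESeq2 or without any 1 of 3 libraries (the deeper or shallower 786-O-Ctrl library or 786-O-VHL replicate 2), and the number of lower subunits was 5 with scaling by library totals alone, which moves the median of all genes from 0.017 to 0.15, and 5 without the deeper 786-O-Ctrl library.

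Partners of the TET enzymes and base excision repair genes went both ways, with 6 higher and 5 lower of 18 tested and a median log2 fold change of 0.07. Both counts lie near the shares over all genes tested, 32.6% higher and 31.9% lower, so they do not set this list apart. The lower genes numbered 3 with DESeq2, after thinning, without the shallower 786-O-Ctrl library and without 786-O-VHL replicate 2. The stress-induced GADD45B and GADD45A, adaptors that have been linked to active demethylation, rose most among the well expressed genes, with log2 fold changes of 1.69 ± 0.102 (SE) and 1.62 ± 0.0745 (SE). GADD45A was at 215 and 243 CPM in 786-O-Ctrl against 633 and 759 CPM in 786-O-VHL. GADD45G, at 7 and 3 counts in 786-O-Ctrl against 5 and 12 counts in 786-O-VHL, was called as higher (edgeR FDR = 0.0319) at a level near the limit of detection. The uracil glycosylase UNG fell by 1.80, PARP1 by 1.27 and the endonuclease APEX1 by 0.61 on the log2 scale. The methyl donor cycle, which supplies S-adenosylmethionine to the methyltransferases, had 4 higher and 4 lower of 9 tested, with a median of 0.11. ADK, MTR and AHCY, which clear adenosine, remake methionine and split the inhibitory product S-adenosylhomocysteine, fell by 1.05, 0.65 and 0.50 on the log2 scale. GNMT, AHCYL2 and AHCYL1 rose by log2 fold changes of 1.18, 0.80 and 0.39. GNMT had 30 and 33 counts in 786-O-Ctrl against 9 and 72 counts in 786-O-VHL. The genes of this cycle were listed by role or family, which does not mean that each supplies S-adenosylmethionine.

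**Figure D5:**
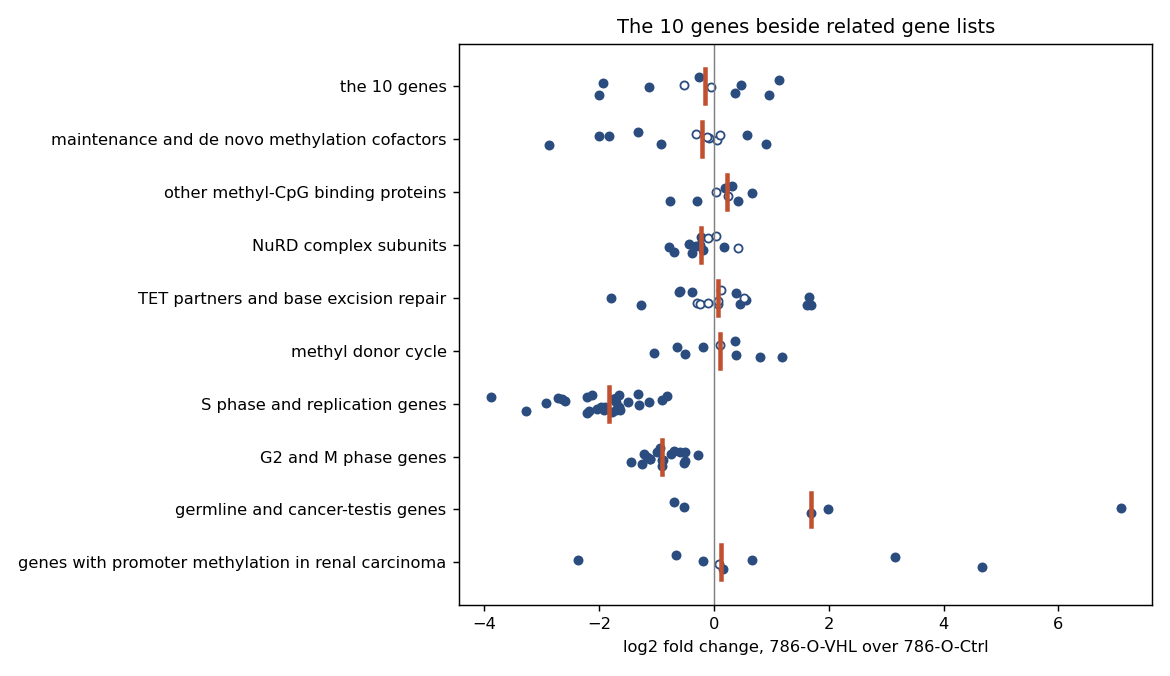
Log2 fold change (786-O-VHL over 786-O-Ctrl) of each tested gene of the 10 and of the related lists. Filled points passed an edgeR FDR of 0.05, and the red bar is the median of the list. All S phase and replication genes and all tested G2 and M phase genes lie below 0, whereas the 10 genes lie on both sides of it.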

How the data were processed

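The 4 RNA-seq libraries were grouped by title, with 2 in each group. The authors deposited raw counts per gene, made from reads aligned to hg19. CASAVA and STAR are named in the submitters' processing notes, without versions. What counted the reads, with which annotation and strand setting, is not stated in the sources used here. Both columns of 786-O-Ctrl share 1 name, so depth tells them apart and no replicate number was given to them.

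Genes with too few counts were removed (filterByExpr, minimum count 10), and the rest were scaled by TMM and tested with edgeR 4.0.16 in R 4.3.3 with group as the only term. The SE is the one implied by the F statistic. Within a group, libraries differed by more than counting noise (chi-square per degree of freedom 2.25 and 2.76). Coordinates, overlaps and exon lengths are from GENCODE on GRCh37, where 12749 of the 12912 identifiers matched. Promoters are from RefSeq on GRCh38.p14, so their coordinates do not compare with those of the genes.

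On counts simulated for this comparison, edgeR recovered 88 of 100 genes changed 2-fold and 97 of 100 changed 8-fold among 11977 genes, with 4 false calls. The simulation changed only 200 genes, up and down alike, and gave every gene the same dispersion. In the real comparison 64.5% of genes were called, so these numbers do not give the error rate of the real calls. Alternatives were DESeq2 1.42.0, limma-voom (limma 3.58.1), RLE factors, library totals alone, no filter, at least 10 counts in every library, thinning to the shallowest library, omission of each library, an FDR of 0.01, and, for shares, raw counts or the longest transcript. Besides the 10 genes and VHL, the text names at most 3 genes per direction of each list and, for the called gene with the smallest p in each direction, the 3 nearest in profile, with exceptions stated. The 10 genes and the lists were chosen with earlier results of these data known.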

Additional observations from a re-analysis of the deposited data

How the results depend on the processing

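Over the alternatives, UHRF1, HELLS, DNMT1, DNMT3A, DNMT3B and TET3 kept their direction and their call in 11 of 11. With each library left out their log2 fold changes ran from -2.14 to -1.95, from -1.99 to -1.76, from -1.15 to -1.13, from 0.89 to 1.03, from 1.09 to 1.19 and from 0.37 to 0.50. Between 3 and 4 of the 10 genes were called in each direction. TET2 stayed positive and lost its call in 2 of 11 (log2 fold change 0.37 with DESeq2 and 0.33 without the shallower 786-O-Ctrl library), and MBD2 stayed negative and lost it in 3 of 11 (-0.13, -0.27 and -0.24 under library totals, thinning and without the shallower 786-O-Ctrl library); the cause was not tested. The uncalled TDG difference turned to 0.09 with library totals, 0.13 after thinning, and ranged from -0.13 to 0.20 with each library left out, and that of TET1 from -0.97 to 0.61. TET1 could not be tested with at least 10 counts in every library, as 786-O-VHL replicate 1 had 9. It could also not be tested after thinning, which leaves fewer counts. The difference in the TET3 share, 1.04 percentage points, turned to -0.946 after thinning and ranged from -2.19 to 4.28 with each library left out. Library totals alone moved the share of higher calls among all genes from 50.5% to 62.1%. With DESeq2, 2861 genes were called higher and 3147 lower, against 4017 and 3939 with edgeR. No paired analysis was possible because both 786-O-Ctrl columns carry the same replicate number. The 2807779 counts of 786-O-VHL replicate 1 limit what can be said of TET1.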

Other observations

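Genes known to be held silent by promoter methylation in normal or tumor tissue went both ways. Of 35 germline and cancer-testis genes, 6 have a row in the table and 5 could be tested, with 3 higher and 2 lower in 786-O-VHL. Over all genes tested, 32.6% were called higher and 31.9% lower. MAGEA12 had 0 and 2 counts in 786-O-Ctrl against 28 and 144 counts in 786-O-VHL, and was called as higher (edgeR FDR = 9.33e-13). MAGEA3 and MAGEA6, its close homologs, fell by 0.69 and 0.53 on the log2 scale. The sequences of these MAGEA genes are near-identical, so the division of reads between them is uncertain. MAGEC2 was at 1.09 and 1.20 CPM in 786-O-Ctrl against 3.05 and 3.86 CPM in 786-O-VHL, and MAEL had 4 and 4 counts in 786-O-Ctrl against 2 and 16 counts in 786-O-VHL. With at least 10 counts required in every library 0 genes of this list were called as higher, since those that rose were then not tested. Without 786-O-VHL replicate 2, 1 gene was called as higher.

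Of 18 genes with promoter methylation known from renal carcinoma, 8 were tested, with 4 higher and 3 lower and a median log2 fold change of 0.12. By the same call, 32.6% of all genes tested were higher and 31.9% lower. The higher genes numbered 2 without 786-O-VHL replicate 2, and thinning left 2 higher and 1 lower. COL14A1, a fibril-associated collagen, was at 3.37 and 3.06 CPM in 786-O-Ctrl against 28.8 and 28.7 CPM in 786-O-VHL. The log2 fold change was 3.15 ± 0.164 (SE, FDR = 8.95e-16 by edgeR). CDH1, the epithelial cadherin, had 3 and 2 counts in 786-O-Ctrl against 7 and 70 counts in 786-O-VHL (edgeR FDR = 9.84e-09). SPINT2, a serine protease inhibitor, rose by a log2 fold change of 0.67. BNC1, APAF1 and UCHL1 fell by 2.37, 0.67 and 0.19 on the log2 scale. BNC1 had 96 and 56 counts in 786-O-Ctrl against 1 and 15 counts in 786-O-VHL. Its value in replicate 1 is below the limit of 3 counts, so the size of its fall is uncertain. DNA methylation was not measured in these samples.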
